A study of Mus musculus with 2 samples.

Results

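The interferon regulatory factors (IRFs) are a family of transcription factors, and 8 of their genes, Irf1, Irf2, Irf3, Irf4, Irf5, Irf7, Irf8 and Irf9, were followed here among 55536 genes. The rule that selects them is a match of symbols, and all 8 were found, with 70 annotated isoforms between them. The RNA came from primary bone marrow-derived macrophages of C57BL/6J mice, which are macrophages grown from marrow in culture. The cells had received 100 ng/ml lipid A, the part of bacterial lipopolysaccharide that TLR4 recognises, for 50 minutes, and ribosomal RNA was removed from the total RNA of their nucleoplasm before sequencing. The 1 group held 2 libraries, labelled as biological replicates that carry the same donor identifier, made from 500 ng of RNA (replicate 1) and 1 µg (replicate 2). Some labels call the fraction nucleus and others nucleoplasm, which is the soluble part of the nucleus outside its chromatin. Without an untreated library in the comparison, no value below is a response to lipid A, and nothing was tested between conditions. The values describe levels, isoforms and the spread between both libraries.

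IRFs share a DNA-binding domain that recognises GAAA repeats, the core of the interferon-stimulated response element of antiviral genes. IRF3, IRF5 and IRF7 wait in the cytoplasm as latent proteins and are switched on by phosphorylation when a sensor such as TLR4 signals through TBK1, IKK-epsilon or the MyD88 adaptor, and IRF3 then drives interferon beta. IRF9 carries the complex ISGF3, which holds STAT2, to DNA once interferon is sensed, IRF1 is made anew after inflammatory signals, IRF2 competes with IRF1 for its sites, and IRF4 and IRF8 are lineage factors of blood cells that bind beside the macrophage factor PU.1.

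Replicate 1 had 10342882 expected counts in its genes and replicate 2 had 20495545, and a count of 0 would allow up to 0.290 and 0.146 counts per 1000000, which covers counting error only. Protein-coding genes of the nuclear genome took 26.2% of the TPM of replicate 1 and 17.0% of that of replicate 2, where TPM are transcripts per 1000000 and allow for transcript length. For the median gene the log2 ratio of TPM between the libraries, replicate 2 over replicate 1, was -0.69, and every SD of a TPM below includes that common shift. Each library held all 8 macrophage markers at 10 TPM or more, between 16.8 and 1877 TPM, whereas none of the 8 B cell, 6 T cell and 6 dendritic cell markers reached 1 TPM in both. The B cell markers summed to 0.91 and 1.21 TPM with Pax5 at 0 counts in both libraries, the T cell markers to 0.48 and 0.50 TPM with Cd3e, Cd3g and Trac at 0, and the dendritic cell markers to 3.19 and 2.10 TPM with Zbtb46, the highest, at 0.77 and 0.38. Of the 6 neutrophil markers 2 reached 1 TPM in both, with sums of 4.41 and 4.46 TPM and Ly6g at 0. In the read-based tables the T cell marker Cd3d passed 1 TPM in both libraries, at 10.4 and 1.05, and with TPM rescaled over nuclear protein-coding genes 1 B cell, 5 dendritic cell and 3 neutrophil markers did. These sums matter for Irf4 and Irf8, which B and dendritic cells also transcribe.

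Nuclear RNA of every one of the 8 genes was detected, and the mean levels ran from 3.41 TPM for Irf4 to 279 TPM for Irf1. At 10 TPM or more in both libraries stood 7 of the 8, all but Irf4, where 13.2% of the 22015 nuclear protein-coding genes reached that level. At 30 TPM or more stood 3 of the 8, Irf1, Irf3 and Irf5, beside 4.72% of those genes, and at 1 TPM or more all 8, beside 38.7%. In the read-based tables, a separate quantification of the same libraries, only 3 of the 8 reached 10 TPM in both. They were Irf1 at 200 and 95.9, Irf3 at 49.5 and 13.0 and Irf5 at 87.6 and 20.1. Irf2, Irf7, Irf9 and Irf8 passed it there in replicate 1, at 26.2, 16.3, 12.9 and 12.3 TPM. They fell short in replicate 2, at 5.30, 6.22, 3.83 and 4.65 TPM. Relative to the median gene of the read-based tables, their log2 ratios of replicate 2 over replicate 1 were -0.04, 0.87, 0.52 and 0.86. In bulk RNA, fewer cells with a transcript and less transcript per cell cannot be told apart. Together the 8 genes held 493 TPM in replicate 1 and 465 in replicate 2, of which Irf1 alone made up 53.2% and 63.7%. They took 0.0855% and 0.119% of all expected counts.

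**Figure D1:**
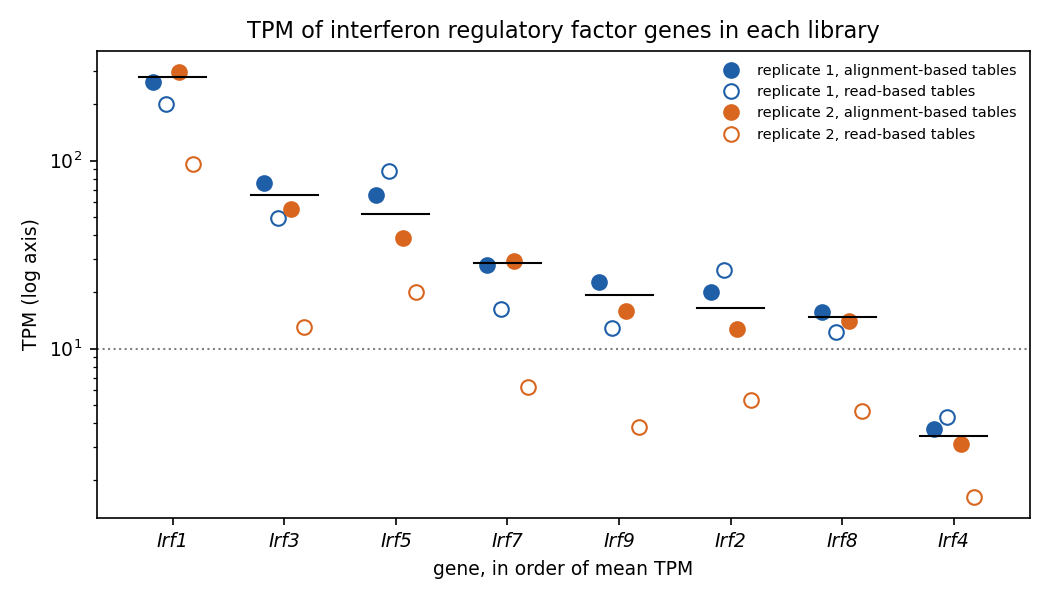
TPM (log axis) of each IRF gene in each library, ordered by mean TPM, with filled points from the alignment-based tables, bars at their mean over 2 libraries, open points from the read-based tables and a dotted line at 10 TPM. Irf1 lies above and Irf4 below all others in every library and both quantifications, and in the read-based tables replicate 2 lies below replicate 1 for all 8 genes.

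Among the latent factors that TLR4 signalling activates, Irf3 had the highest mean TPM in the alignment-based tables and Irf5 in the read-based ones. Irf3 (ENSMUSG00000003184.15, chromosome 7, 44997648 to 45002848, plus strand, mm10) encodes the factor that TBK1 phosphorylates to start interferon beta transcription, and had 75.7 TPM in replicate 1 and 55.1 in replicate 2, from 676 and 1645 counts. Its mean was 65.4 ± 14.6 TPM (SD, n = 2), above 97.4% of nuclear protein-coding genes. That level includes isoforms annotated as retaining an intron, which held 66.4% of the Irf3 transcript TPM in each library. Irf5 (ENSMUSG00000029771.12, chromosome 6, 29526625 to 29541871, plus strand) encodes the factor tied to MyD88 and to inflammatory cytokine genes, and had 65.4 and 38.7 TPM from 1300 and 2522 counts. Replicate 1 was the higher library for both of these genes, as for the median gene. Irf7 (ENSMUSG00000025498.15, chromosome 7, 141262706 to 141266481, minus strand), the amplifier of the interferon response, was nearly level between the libraries at 27.8 and 29.2 TPM, from 525 and 1701 counts. Irf5 averaged 52.0 ± 18.9 TPM and Irf7 28.5 ± 1.01 TPM (SD, n = 2).

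Irf9 (ENSMUSG00000002325.15, chromosome 14, 55603571 to 55610030, plus strand) encodes the DNA-binding subunit that joins STAT2 in the complex ISGF3. It had 22.6 TPM in replicate 1 and 15.8 in replicate 2, from 560 and 1189 counts, with a mean of 19.2 ± 4.76 TPM (SD, n = 2). Stat2 was higher on the same TPM scale, at 44.9 and 35.3, and exceeded Irf9 in both libraries.

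The pair of factors that compete for the same sites differed widely in RNA level. Irf1 (ENSMUSG00000018899.16, chromosome 11, 53770014 to 53778374, plus strand), an activator whose gene NF-kB is known to induce, had 262 TPM in replicate 1 and 296 in replicate 2, from 4784 and 15067 counts. It averaged 279 ± 24.3 TPM (SD, n = 2) and lay above 99.6% of nuclear protein-coding genes. Irf2 (ENSMUSG00000031627.9, chromosome 8, 46739732 to 46847458, plus strand), its antagonist and a gene 107727 bases long against 8361 for Irf1, had 20.1 and 12.7 TPM from 407 and 636 counts, or 16.4 ± 5.23 TPM on average. Irf1 was above Irf2 in both libraries.

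Both lineage factors were measured, at unequal levels. Irf8 (ENSMUSG00000041515.10, chromosome 8, 120736358 to 120756694, plus strand), which macrophage and dendritic cell development needs, had 15.6 TPM in replicate 1 and 14.0 in replicate 2, from 399 and 1133 counts, with a mean of 14.8 ± 1.15 TPM (SD, n = 2). Irf4 (ENSMUSG00000021356.10, chromosome 13, 30749226 to 30766976, plus strand), known from plasma cells and alternatively activated macrophages, had 3.72 and 3.10 TPM from 190 and 481 counts, or 3.41 ± 0.438 TPM. It was the lowest of the 8 in both libraries and still above 71.0% of nuclear protein-coding genes. The 8 B cell markers summed to less TPM than Irf4 alone in each library, and so did the 6 dendritic cell markers, at 3.19 and 2.10 TPM. The part of other cells in the Irf4 and Irf8 values was not tested.

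Ordered by mean TPM the family ran Irf1, Irf3, Irf5, Irf7, Irf9, Irf2, Irf8, Irf4. A neighbouring pair was taken to differ beyond its spread when the log2 ratio had one sign in both libraries and a mean larger than its SD, and 6 of the 7 pairs did. The order came from the same 2 libraries, so this count describes them and is not a test. The largest steps stood at the ends. Irf1 over Irf3 was 1.79 in replicate 1 and 2.43 in replicate 2, a mean log2 ratio of 2.11 ± 0.45, and Irf8 over Irf4 was 2.07 and 2.17, a mean of 2.12 ± 0.07. The inner steps were smaller, with mean log2 ratios of 0.36 ± 0.21 for Irf3 over Irf5, 0.82 ± 0.59 for Irf5 over Irf7, 0.59 ± 0.41 for Irf7 over Irf9 and 0.25 ± 0.11 for Irf9 over Irf2 (SD, n = 2). Irf2 and Irf8 could not be ordered, as their log2 ratio was 0.36 in replicate 1 and -0.14 in replicate 2. The step from Irf3 to Irf5 turned under both alternatives, for a cause that was not tested: Irf5 led Irf3 by a mean log2 ratio of 0.73 ± 0.14 in the read-based tables and by 0.62 ± 0.23 when counts were divided by the length of the longest coding isoform. The whole order in the read-based tables was Irf1, Irf5, Irf3, Irf2, Irf7, Irf8, Irf9, Irf4, in which Irf2 could not be separated from Irf7 nor Irf8 from Irf9.

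Members of the family differed in which annotated isoforms held their RNA. In Irf3 and Irf7 most of the transcript TPM lay in isoforms annotated as retaining an intron. In Irf5 and Irf4 all of the TPM lay in protein-coding isoforms, and the remaining genes stood between. Neither Irf5 nor Irf4 has an annotated retained-intron isoform, so no such share could be measured for them. Isoforms not annotated as protein-coding made up 50% or more in both libraries for 2 of the 7 members that have such an isoform, Irf3 and Irf7, beside 20.9% of the 7677 protein-coding genes with a mean of at least 1 TPM, so the count itself is close to that background. The share of retained-intron isoforms was 66.4% in replicate 1 and 66.4% in replicate 2 for Irf3, and 68.4% and 72.7% for Irf7. Among 5896 protein-coding genes with such an isoform the median share was 26.5%, with quartiles of 13.1% and 42.8%, and Irf3 lay above 94.5% and Irf7 above 95.9% of them. Irf9 followed at 42.0% and 37.7%, Irf2 at 36.7% and 36.4% and Irf8 at 34.2% and 31.6%, all 3 inside those quartiles. Irf1, the most abundant member, had the lowest share of the 6 genes with such an isoform, 13.1% and 16.1%. In the read-based tables the share fell to 23.5% and 18.7% for Irf2. By counts in place of TPM it was 29.0% and 22.5% for Irf2 and 4.66% and 6.56% for Irf1. A quantification can assign reads of RNA that is not yet spliced to such isoforms, and the share of such RNA was not tested.

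**Figure D2:**
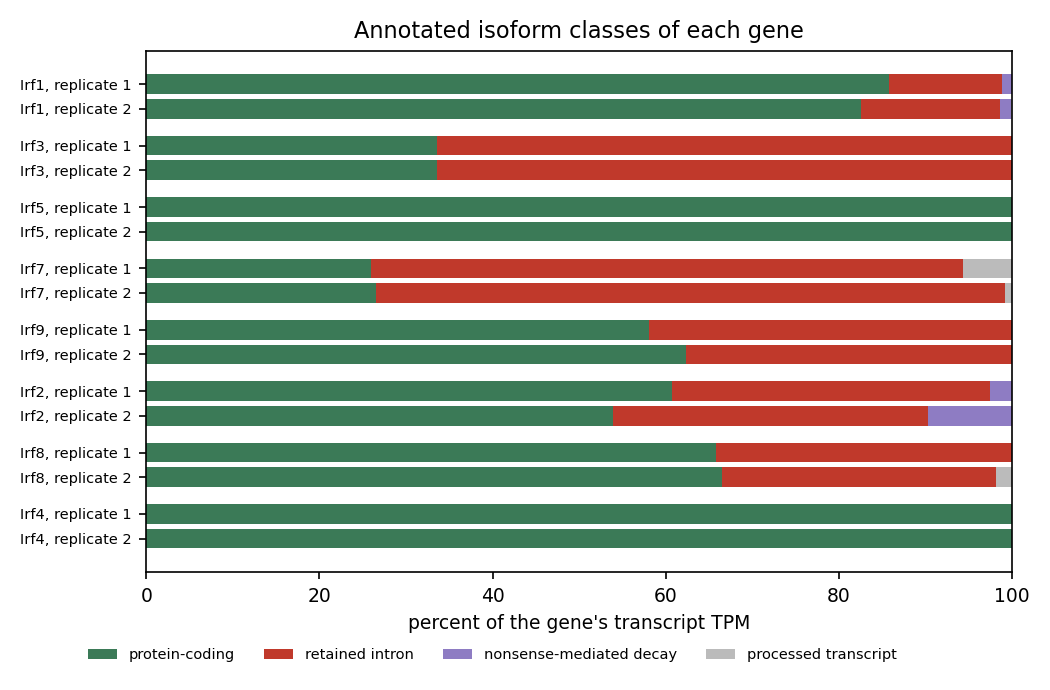
Percent of each gene's transcript TPM by annotated isoform class (colours) in each library, 1 bar per gene and replicate. Retained-intron isoforms fill about 66.4% of the Irf3 bars and 68.4% to 72.7% of the Irf7 bars. The Irf5 and Irf4 bars are protein-coding throughout, and neither gene has an annotated retained-intron isoform.

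Irf7 owed most of its share to 1 isoform that differs from mature RNA by a single short intron. Irf7-210 had 14.1 TPM in replicate 1 and 15.3 in replicate 2, from 269 and 902 counts, a mean of 14.7 ± 0.905 TPM (SD, n = 2). Of its 1922 bases only 69 lie in no exon of a coding isoform. They are the whole of intron 5 of Irf7-201, and the start of the 165-base intron 5 of Irf7-203. The sequence of the longer intron with 10 exon bases on either side is shown because the leading isoform holds these 69 bases and no coding isoform does. It runs 5′ to 3′ on the minus strand at chr7:141264550-141264734 (mm10, from the GENCODE M21 transcripts), with the 69 bases in capitals.
Irf7 intron 5: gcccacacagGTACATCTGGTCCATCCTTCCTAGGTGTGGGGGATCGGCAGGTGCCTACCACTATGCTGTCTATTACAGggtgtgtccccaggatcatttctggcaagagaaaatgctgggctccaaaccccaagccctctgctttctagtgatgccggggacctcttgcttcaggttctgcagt
Read in the frame of both coding isoforms, the retained bases gave a stop codon starting at base 22 of the intron, the TAG in CCTAGG. The protein-coding isoform with the highest mean, Irf7-203, had 4.24 and 2.32 TPM, and in replicate 2 Irf7-202 was above it at 3.23 TPM. Both lay below Irf7-210 in both libraries. Irf7-213, an unspliced isoform that keeps all 9 introns of Irf7-203, had 2.62 and 2.79 TPM. The highest processed transcript, Irf7-208, had 1.55 and 0.22 TPM, from 2 and 1.11 counts.

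**Figure D3:**
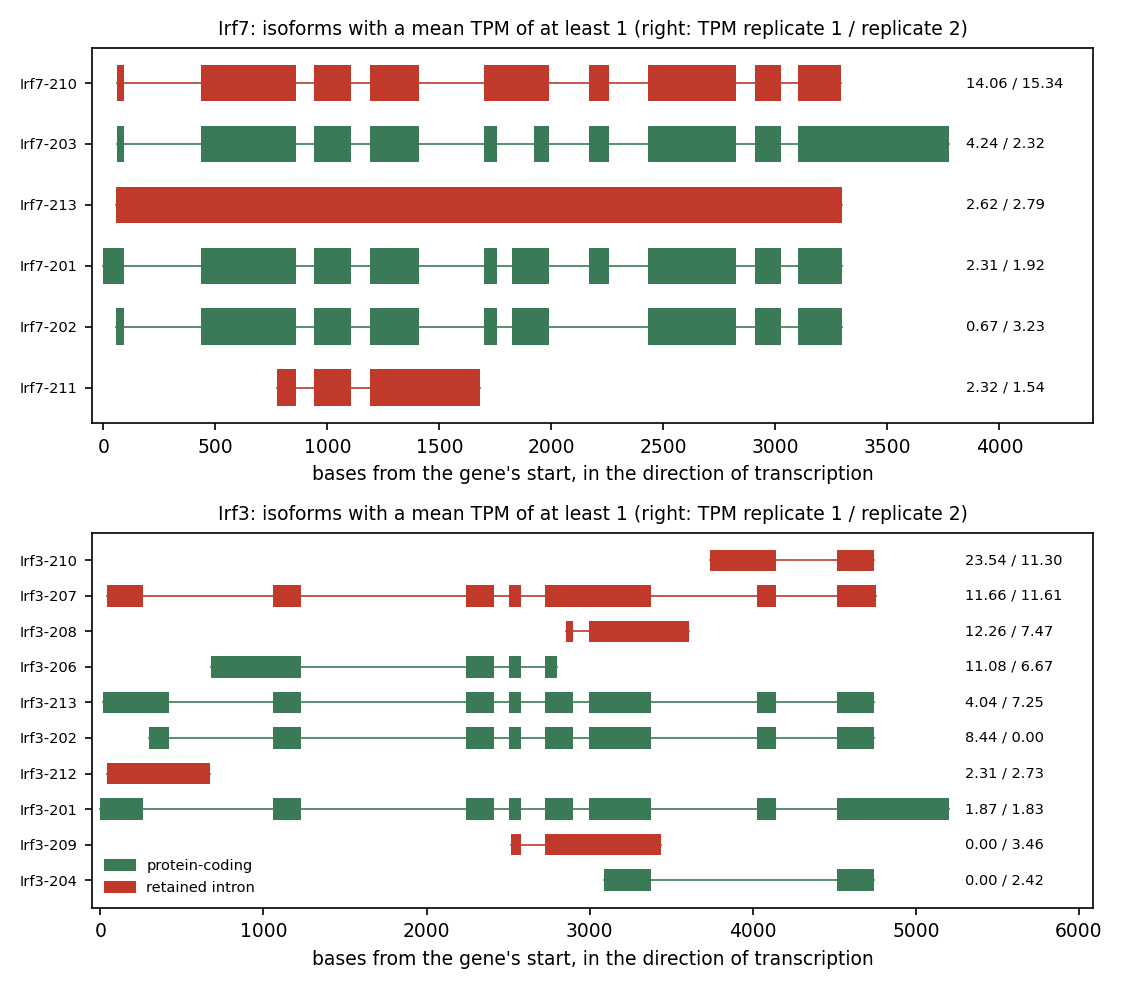
Exons (boxes) and introns (lines) of the Irf7 and Irf3 isoforms with a mean of at least 1 TPM, in bases from the gene's start in the direction of transcription, with TPM of replicate 1 and replicate 2 at the right. Irf7-210, at 14.06 and 15.34 TPM, is spliced at every intron of Irf7-201 except intron 5, and the Irf3 isoforms with the most TPM, Irf3-210, Irf3-207 and Irf3-208, each reach into an intron.

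In Irf3 the share was spread over several isoforms and introns. Irf3-210 had the highest mean, with 23.5 TPM in replicate 1 and 11.3 in replicate 2, and is a 629-base isoform with 286 bases of the 650-base intron 6 of Irf3-201, and Irf3-208 reached 235 bases into the same intron from its start, at 12.3 and 7.47 TPM. Irf3-207 was spliced elsewhere but held the whole 98-base intron 5, and was at 11.7 and 11.6 TPM, which puts it just above Irf3-210 in replicate 2. Irf3-212, at 2.31 and 2.73 TPM, reaches into intron 1. Irf3-206, the protein-coding isoform with the highest mean, had 11.1 and 6.67 TPM, and Irf3-213 was above it in replicate 2 at 7.25. Irf3-202, named after its values were seen, had 8.44 TPM in replicate 1 and 0 in replicate 2, so single coding isoforms of Irf3 were not measured as steadily as the class. The introns of the 3 retained-intron isoforms with the most TPM were chosen for display. Intron 5, held by Irf3-207, is shown with its flanks, chr7:45000537-45000654 on the plus strand. The junction at which intron 6 begins, chr7:45001013-45001042, is read across by Irf3-208. Irf3-210 begins inside intron 6 and does not hold that junction. Capitals mark the bases of intron 5 in its sequence and the GT of the 5′ splice site in that of intron 6.
Irf3 intron 5: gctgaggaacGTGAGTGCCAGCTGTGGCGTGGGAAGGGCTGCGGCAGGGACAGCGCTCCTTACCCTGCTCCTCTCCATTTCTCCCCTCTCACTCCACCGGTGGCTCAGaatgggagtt
Irf3 intron 6, 5′ end: ttcgtggcagGTgagtgagcaccctatgga
Unlike in Irf7, the retained intron 5 of Irf3 held no stop codon in the frame of Irf3-201. The frame ran through it and met a stop codon that begins at base 114 counted from the intron's start, in the next exon, and that is not the stop codon of Irf3-201.

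Among the other members, Irf9-206 was a long isoform with introns 6 to 9 of Irf9-203 unspliced, at 4.68 TPM in replicate 1 and 2.73 in replicate 2, and Irf9-204, the highest retained-intron isoform of Irf9, had 4.79 and 3.24 TPM. The highest coding isoform, Irf9-202, was at 6.26 and 5.68 TPM. Irf8-202 had the highest mean of the retained-intron isoforms of Irf8, at 3.24 and 2.03 TPM, and the longer Irf8-207, which holds 3243 bases of intron 2, had 2.09 and 2.39 and so was above it in replicate 2. The 5′ splice sites that the long Irf9 and Irf8 isoforms read across, chr14:55606429-55606458 and chr8:120739982-120740011, both on the plus strand, are given with GT in capitals to set beside that of Irf3.
Irf9 intron 6, 5′ end: ctagaggaggGTatggcactgtttccccta
Irf8 intron 2, 5′ end: catcttcaagGTaaagcctcctgcgtaccc
Irf8-201, the coding isoform, led in both libraries at 10.3 and 8.65 TPM, and the processed transcript Irf8-203 was at 0 and 0.26. In the read-based tables Irf8-203 held 20.3% and 19.0% of the gene's TPM. That share rested on 28.7 and 64.2 estimated counts of a 596-base isoform, against 464 and 789 for Irf8-201. In Irf2 the coding Irf2-201 had 10.7 and 4.83 TPM, the retained-intron Irf2-211 4.23 and 3.22, and Irf2-210, annotated for nonsense-mediated decay, 0.51 and 1.23. Irf2-211 is 397 bases long and rested on 8.44 and 23.05 counts. By TPM the read-based tables were instead led by Irf2-203, which is at 0 in the alignment-based ones. It held 34.6% and 29.6% of the gene's TPM against 27.7% and 24.4% for Irf2-201. By estimated counts Irf2-201 led there, with 512 and 522 against 38.8 and 49.2 for the 352-base Irf2-203.

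Irf1 was led by the coding isoform Irf1-202, with 118 TPM in replicate 1 and 144 in replicate 2, a mean of 131 ± 17.8 TPM (SD, n = 2). Irf1-210, its retained-intron isoform, holds 503 bases from within intron 3 and had 34.3 and 47.6 TPM, which is more than the whole-gene mean of Irf7. The isoform annotated for nonsense-mediated decay, Irf1-209, had 2.91 and 3.84 TPM. For Irf5 the leading isoform rested on the quantification: Irf5-201 held 71.5% and 71.2% of the gene's transcript TPM in the alignment-based tables but 7.18% and 15.3% in the read-based ones, where Irf5-202 led with 33.5% and 32.1%. The processed transcript of Irf5, Irf5-206, was at 0 in the former tables. Irf4 has coding isoforms only, and Irf4-201 led with 2.36 and 2.15 TPM. In the read-based tables Irf4-203, at 0 in the others, held 37.7% and 53.0% of the TPM against 37.3% and 33.2% for Irf4-201. Irf4-203 is 360 bases long, and its share rested on 7.26 and 28.1 estimated counts. The 4764-base Irf4-201 had 226 and 431 there.

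Intron lengths of these genes are given beside the retained-intron shares, and a link between them was not tested. In the longest coding isoform the median intron was 165 bases in Irf7 (range 75 to 345 over 9 introns), 224 in Irf9 and 375 in Irf3, and 9011 in Irf2 (306 to 53556 over 8 introns). Irf5, which has no annotated retained-intron isoform, had a median intron of 305 bases, between Irf9 and Irf3. Median introns in the rest were 585 bases in Irf1, 1400 in Irf4 and 1612 in Irf8.

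Overlapping genes bear on several of these values, because no source used here states the strand setting of the quantification, and reads of opposite genes may not be separable. Irf5 overlaps Tnpo3 on the opposite strand by 1045 bases and shared 12.3% of its 31-base words with it, and Tnpo3 was at 29.0 TPM in replicate 1 and 17.3 in replicate 2. Irf1 overlaps the protein-coding Gm17334 by 907 bases on the opposite strand, which was at 40.7 and 53.8 TPM, though the words shared with any gene were 2.19% of those of Irf1. Irf3 overlaps Bcl2l12 (1.68 and 1.00 TPM), lies 100 bases from Scaf1 (13.6 and 10.7) and shared 1.66% of its words. Irf9 overlaps Rnf31 on the same strand by 123 bases (10.4 and 13.6 TPM) and shared 1.69% of its words with it. With any gene on either strand Irf9 shared 4.82%. Irf7 overlaps Phrf1 by 45 bases (30.8 and 18.3 TPM) and shared 0.361%. Irf8 lies wholly inside Gm20388, a locus on the same strand with 9.54 and 6.61 TPM, and none of its 31-base words occurred in another gene. Irf2 overlaps the opposite-strand loci Gm45479 (1.99 and 2.54 TPM), Gm31172 (0 and 0.64) and Gm45481 (5.96 and 0.73), with Gm16675 217 bases away (0.73 and 0.41), and Irf2 shared 0.174% of its words. Irf4 overlaps no gene and shared none. No word was shared between any of the 8 genes.

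RNA was present for every gene listed for the signalling chain that leads to the IRFs. The list was drawn up with earlier results of these data known and need not cover every step. Each of the 15 upstream genes passed 1 TPM in replicate 1 and in replicate 2, and 10 of the 15 passed 10 TPM, beside 38.7% and 13.2% of nuclear protein-coding genes. In the read-based tables all 15 passed 1 TPM and 4 passed 10 TPM. Their median was 18.4 TPM in replicate 1 and 12.0 in replicate 2. The highest were Cd14, which hands lipopolysaccharide to TLR4, at 575 and 391 TPM, Tank, an adaptor of TBK1, at 373 and 204, and Ikbke, which encodes IKK-epsilon, at 239 and 255. Traf3 at 5.59 and 4.83 TPM and Irak4 at 5.46 and 3.70 were the lowest. Tank was also the gene of these lists closest in level to Irf1, differing by 0.016 in mean log2(TPM + 1) among 41 genes searched, although it lay above Irf1 in replicate 1 and below it in replicate 2, and Ikbke was nearer in each library.

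All 9 partner genes passed 1 TPM in both libraries and 5 of the 9 passed 10 TPM, again beside 38.7% and 13.2% of nuclear protein-coding genes, while 8 of the 9 passed 1 TPM and 3 passed 10 TPM by the read-based quantification. They had medians of 19.3 and 11.0 TPM. Jun, whose protein shares composite sites with BATF proteins and IRF4 or IRF8, led at 61.2 and 54.6 TPM, ahead of Stat2 and of Spi1, which encodes PU.1, at 23.7 and 28.9, and the BATF genes Batf2 at 2.51 and 3.97 and Batf3 at 1.34 and 2.04 were lowest. Batf2 was the gene closest in level to Irf4, with a difference of 0.075 in mean log2(TPM + 1). All 5 corepressors and modifiers passed 1 TPM and 2 passed 10 TPM in both libraries, beside the same background, and 3 and 0 by the read-based one, with medians of 7.92 and 8.09 TPM. Irf2bp2, a corepressor that binds IRF2, led at 25.9 and 17.3 TPM, followed by the ubiquitin ligase genes Rbck1 at 16.1 and 12.5 and Trim21 at 7.92 and 8.09. Irf2bpl at 2.43 and 2.18 and Irf2bp1 at 1.13 and 1.08 were lowest.

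Known target genes of the IRFs were all well represented in the nucleoplasm. All 12 passed 10 TPM in each library, beside 13.2% of nuclear protein-coding genes, and 8 of the 12 did in the read-based tables. There Ifit1 at 4.67, Ifit3 at 5.25, Gbp2 at 7.33 and Ifit2 at 8.87 TPM fell short in replicate 2, and they are named for that reason. Their median was 80.2 TPM in replicate 1 and 43.0 in replicate 2. Rsad2, which encodes viperin, had 524 and 245 TPM, Cd40, a costimulatory receptor, 220 and 203, and the chemokine gene Ccl5 162 and 186. Gbp2 at 39.9 and 25.5 and Il12b at 25.9 and 35.0 had the lowest means, and each of these still exceeded Irf9, Irf2, Irf8 and Irf4 in both libraries. In replicate 2 Ifit1 at 21.02 and Ifit3 at 24.15 TPM lay below both. By the read-based quantification Irf2 had 26.2 TPM in replicate 1, above Gbp2 at 25.9 and Il12b at 22.1. The target list was drawn up with earlier results of these data known, so its levels are a description.

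**Figure D4:**
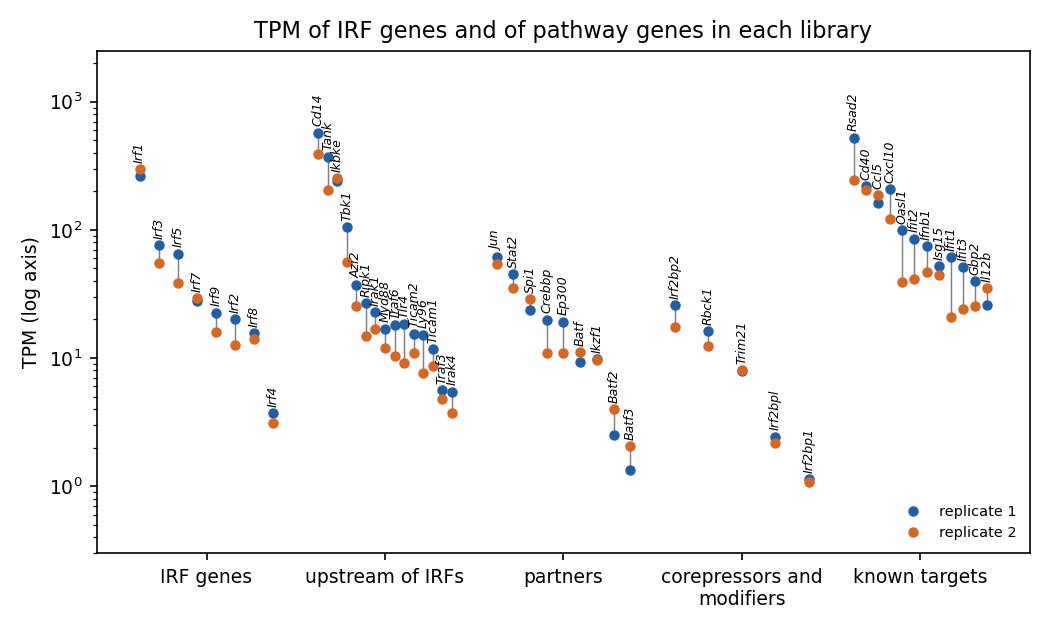
TPM (log axis) of the IRF genes and of 41 genes of their pathway in replicate 1 and replicate 2, grouped by role and ordered by mean TPM, with a line joining the libraries of a gene. Targets stay above 20 TPM throughout, whereas the upstream, partner and modifier groups each reach below 10 TPM.

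Between the replicates no IRF gene departed 2-fold from the median gene, and most lay above it. After subtraction of the median log2 ratio, replicate 2 over replicate 1, 7 of the 8 were positive and none passed 2-fold, where 11.1% of 11532 genes did. Irf1 had the largest ratio at 0.87, with a 95% interval from 0.82 to 0.92 that covers counting error only, above 93.0% of genes, and Irf7 followed at 0.76 (0.62 to 0.91), above 90.6%. Irf8 was at 0.53 (0.37 to 0.70) and Irf4 at 0.43 (0.18 to 0.68). The others lay inside the quartiles of all genes, -0.35 and 0.35: Irf3 at 0.23, Irf9 at 0.18, Irf2 at 0.03 and Irf5, the only negative one, at -0.06. Under edgeR's TMM scaling the signs of the smallest ratios turned, with Irf2 at -0.23 and Irf5 at 0.08, and in the read-based tables Irf1 passed 2-fold at 1.20. RNA input and depth differed between the same libraries, and their part in these ratios was not tested.

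**Figure D5:**
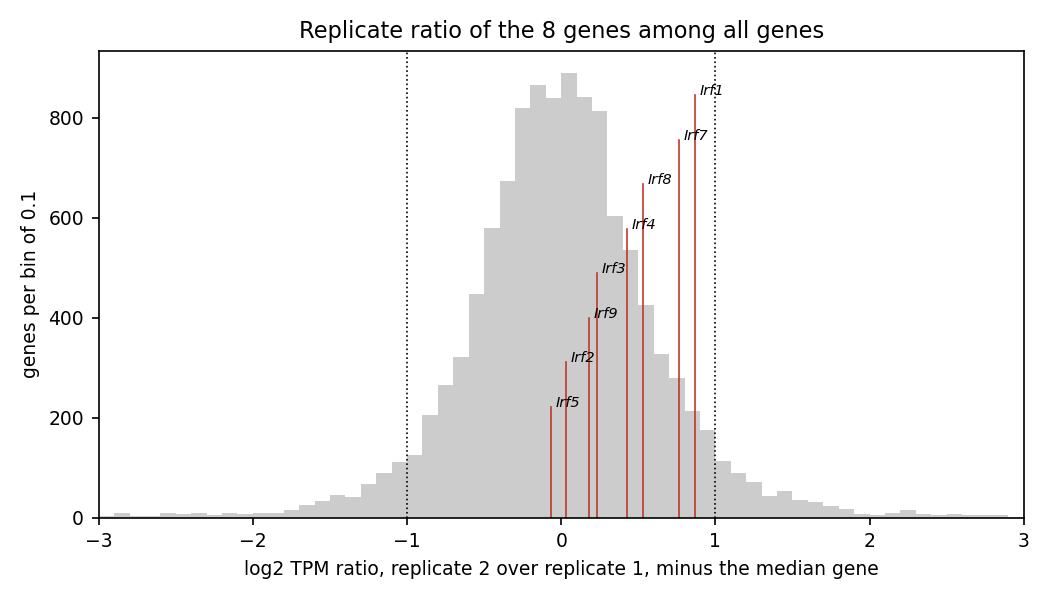
Histogram of the log2 TPM ratio, replicate 2 over replicate 1 minus the median gene, for genes with a mean of at least 1 TPM (grey, bins of 0.1), with the IRF genes as red lines whose heights only separate the labels and dotted lines at 2-fold. The IRF genes run from -0.06 for Irf5 to 0.87 for Irf1, none beyond the dotted lines.

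Promoter windows, from 250 bases before to 50 after a start site, were searched on both strands for the binding sequences of factors that act upstream of IRF genes. RefSeq (GRCm38.p6) gave 11 such windows for all 8 genes. Irf1, the most abundant member, has a further window, chr11:53770223-53770522, which held no match. Its window with matches is printed up to the start site, chr11:53769764-53770013 on the plus strand, with matches in capitals.
Irf1 promoter: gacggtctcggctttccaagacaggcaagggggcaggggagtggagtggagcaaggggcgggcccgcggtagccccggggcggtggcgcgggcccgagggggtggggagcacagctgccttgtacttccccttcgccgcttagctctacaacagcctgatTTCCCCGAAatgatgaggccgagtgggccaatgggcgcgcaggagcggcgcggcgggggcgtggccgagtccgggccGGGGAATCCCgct
The capitals are TTCCCCGAA at -90 to -82, a match to the STAT element TTCNNNGAA, and GGGGAATCCC at -13 to -4, a match to the NF-kB consensus. A STAT element was found in 8.30% and an NF-kB consensus in 8.46% of 32851 windows of the same length. Irf8 held 2 STAT elements, TTCTCGGAA at -171 to -163 and TTCAGAGAA at -153 to -145. Irf2 held all 3 kinds, TTCCGAGAA at -224 to -216, GGGGATTTCC at -17 to -8 and the interferon-stimulated pair, GAAA with any 2 bases and again GAAA, as GAAAATGAAA at -241 to -232, which is in 3.44% of windows. The windows of Irf3, Irf4, Irf5, Irf7 and Irf9 held none of these letters, and neither did a further window of Irf8, chr8:120738389-120738688. No match overlapped another.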

How the data were processed

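The deposited tables of genes and transcripts give expected counts with TPM (transcripts per 1000000), and per the authors' readme were made from alignments to transcripts (mm10, annotation M21). A further deposited transcript table, made from the reads, holds estimated counts and TPM in another column layout; its isoforms were summed per gene. The deposited tables also hold interval bounds of TPM, a score whose level is not stated, which no result uses. No source used here gives program names, a strand setting or filters. Members and lists were chosen with earlier results of these data known, and some genes drawn up beside them are not reported here and left out of the counts. The genes named were all 8 members, in each list the 3 genes highest and the 2 lowest by mean TPM, the list genes nearest in level to Irf1 and Irf4, the overlapping or nearest genes and the highest isoform of each class; other isoforms that are discussed (such as Irf9-206, Irf8-207, Irf7-213 and those of Irf3) were picked after their values were seen. The libraries differed by a chi-square of 90.0 per degree of freedom over 15690 genes and were kept as 2 replicates. Levels were taken as deposited, and isoform shares as percent of summed transcript TPM. Ratios used genes with a mean of at least 1 TPM, with exact binomial intervals at 95% from rounded counts. TMM factors came from edgeR 4.0.16 in R 4.3.3, and the rest from Python 3.11.15. The centring of ratios was run on simulated counts drawn from a common profile with counting error only. They were not set to hold the wider spread or the median shift of these libraries, so the centring was not tested under those. Alternatives were the read-based tables, TPM rescaled over nuclear protein-coding genes, counts per 1000000, other thresholds and filters, and each library alone. No p-value was computed.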

Additional observations from a re-analysis of the deposited data

How the results depend on the processing

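The number of IRF genes at 10 TPM or more in both libraries was 7, and with each library alone it ran from 7 to 7. It was 3 in the read-based tables, 3 at a threshold of 30 TPM and 8 with TPM rescaled over nuclear protein-coding genes. Irf2, Irf7, Irf8 and Irf9 fell short of 10 TPM in the read-based tables in replicate 2 only. In the read-based tables Irf1, which is 1 gene of 8, passed 2-fold between the replicates at a centred log2 ratio of 1.20, against 0 otherwise, and 3 of the corepressors and modifiers, against 5, reached 1 TPM in both libraries. The cause was not tested. The number of genes with 50% or more of TPM outside protein-coding isoforms stayed at 2 in the read-based tables, by counts and with each library alone, where by counts the retained-intron share was 55.5% and 59.1% for Irf3 and 70.7% and 73.3% for Irf7. Of single values, the read-based tables moved 6 of 8 levels and 6 of 7 protein-coding isoform shares by more than 1 SD over the libraries, and 5 of 8 replicate ratios. Rescaling TPM over nuclear protein-coding genes moved 8 of 8 levels and counts per 1000000 moved 7, but both of these change the unit of a level. Counts in place of TPM moved 5 of 7 isoform shares, and TMM scaling moved 4 of 8 replicate ratios. Neighbouring levels that differed beyond their spread were 6 of 7, and 5 in the read-based tables and by counts per length. No paired analysis was possible because there was 1 group. Gene-level counts of the members began at 190, for Irf4 in replicate 1, and some single isoforms had fewer.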
